A study of Mus musculus with 12 samples.

Results

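The genes described here encode the enzymes that remove superoxide and hydrogen peroxide directly: the superoxide dismutases Sod1, Sod2 and Sod3, catalase (Cat) and the peroxiredoxins Prdx1 to Prdx6. They were found by their gene symbols, and all 10 were among the 27022 genes of the count table. Each of the 10 passed the filter on low counts in both kits. Liver RNA came from 6 female SJL/J mice aged 11 weeks, 3 per diet, and every RNA was made into 1 library with each of 2 kits. All mice arrived at 3 weeks of age and were placed on the AIN-93G control diet with 50 ppm iron. The iron-loaded mice were changed at 6 weeks to an AIN-93G diet with 2% carbonyl iron, and the control mice stayed on the first diet. Both groups were fasted and their blood was flushed out by perfusion before the liver was frozen. Each diet was fed to 1 cage, and effects of the cage cannot be told apart from those of the diet.

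The Trad-KAPA kit (KAPA Stranded mRNA-Seq) fragments whole transcripts, so that a long transcript gives more reads than a short one. The 3’-LEXO kit (QuantSeq 3’ mRNA-Seq FWD) primes at the poly(A) tail and gives about 1 read per transcript, whatever its length. Levels are in CPM, the counts of a gene for every 1 M counts of its library. The library totals lay between 13834682 and 16553616 counts for Trad-KAPA and between 10724672 and 14104236 counts for 3’-LEXO. Libraries of 1 kit and diet all differed by more than counting noise. Iron-loaded mouse 1 stood apart from iron-loaded mice 2 and 3 in both kits. The chi-square of its counts per degree of freedom was 49.4 to 59.8 against those mice, beside 5.97 and 5.98 between them. Between control mice it was 18.5 to 19.9 in Trad-KAPA and 25.8 to 35.9 in 3’-LEXO. Values without this mouse are given for each of the 10 genes and beside the other results it changes.

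Superoxide is made when an electron leaks to oxygen, and free ferrous iron converts hydrogen peroxide to the hydroxyl radical. Superoxide dismutases turn superoxide into oxygen and hydrogen peroxide. Sod1 uses copper and zinc and works in the cytosol, Sod2 uses manganese in the mitochondrial matrix, and Sod3 is the secreted copper and zinc enzyme. Catalase is a heme enzyme of the peroxisome that splits hydrogen peroxide into water and oxygen. Peroxiredoxins reduce peroxides with a reactive cysteine and are mostly returned to their active form by thioredoxin. Prdx1 and Prdx2 are found in the cytosol, Prdx3 in mitochondria and Prdx4 in the endoplasmic reticulum. Prdx5 is spread over mitochondria, peroxisomes and cytosol, and Prdx6 has only 1 catalytic cysteine and uses glutathione.

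The question of the diet comparison was which of these genes differed between iron-loaded and control livers, and whether both kits showed it. In Trad-KAPA, 3 of the 10 genes (Cat, Sod3 and Prdx5) fell on the iron-loaded diet and 0 rose (edgeR quasi-likelihood test, Benjamini-Hochberg adjusted over all genes, threshold 0.05). Among all 13151 genes tested, 17.1% were called, 8.37% lower and 8.77% higher. For this kit, 6 of the 10 genes had an unadjusted p under 0.05 in edgeR, and DESeq2 called 4, adding Prdx6. In 3’-LEXO 0 of the 10 genes were called, with 3 at an unadjusted p under 0.05 in edgeR and 1, Cat, called by DESeq2. There, 6.1% of the 13301 genes tested were called by edgeR, 2.92% lower and 3.17% higher. The DESeq2 totals over all genes were 2431 for Trad-KAPA and 1313 for 3’-LEXO. Shares of all genes at an unadjusted p under 0.05 are not given here, so that those counts have no baseline. The 10 genes had a median log2 fold change of -0.32 by Trad-KAPA and -0.23 by 3’-LEXO, beside 0.02 and 0.01 over all genes tested. In 8 of 10 genes the log2 fold change was below 0 in Trad-KAPA, and in 9 of 10 in 3’-LEXO. Both kits drew on the same RNA, so that they are not independent samples of mice. In whole liver, fewer cells of a type and less RNA per cell cannot be told apart.

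**Figure D1:**
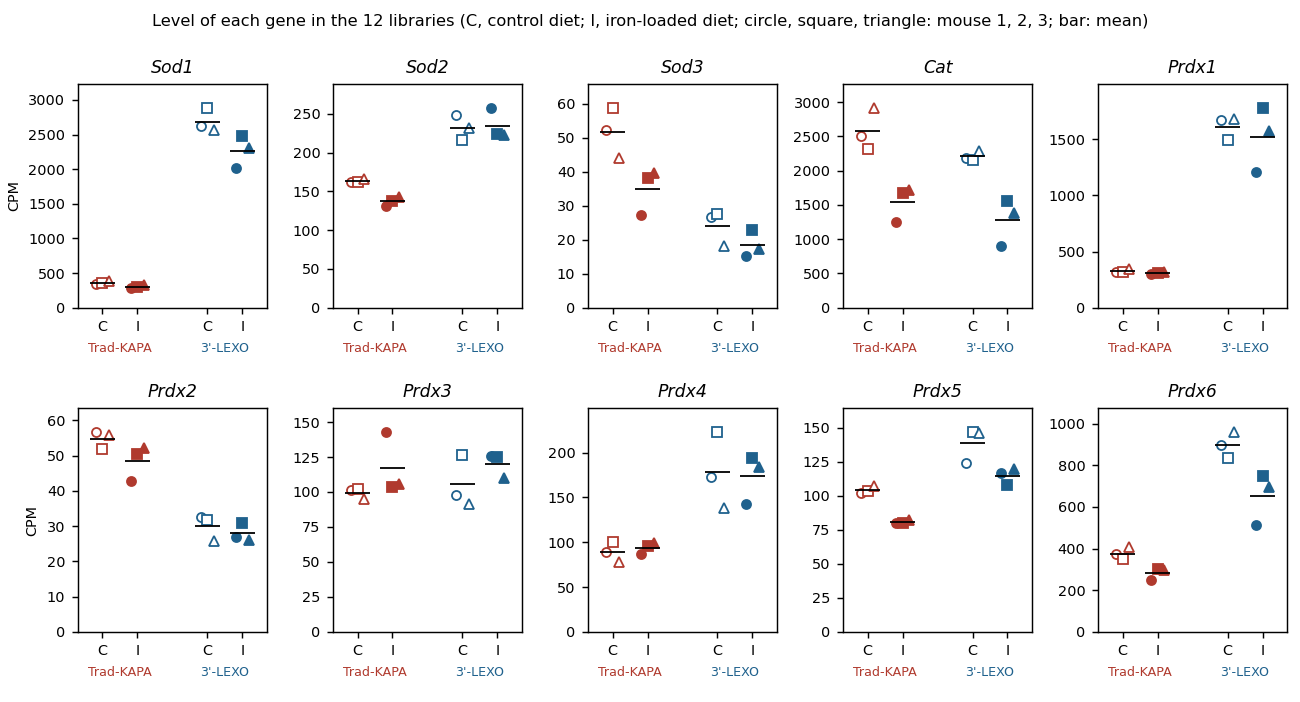
Level in CPM (linear axis from 0) of each of the 10 genes in the 12 libraries, with open symbols for the control diet, filled symbols for the iron-loaded diet, a symbol shape per mouse and a bar at the group mean. For Cat, every iron-loaded library lies below every control library in both kits, and for Prdx5 the 3 iron-loaded Trad-KAPA libraries lie within 79.7 to 81.9 CPM.

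Catalase (ENSMUSG00000027187, chromosome 2, 103453849 to 103485160 on the minus strand of GRCm38) had the largest log2 fold change of the 10 genes in either kit. In Trad-KAPA, its level was 2509, 2323 and 2913 CPM in control mice 1, 2 and 3 and 1251, 1674 and 1716 CPM in iron-loaded mice 1, 2 and 3. The iron-loaded libraries were all lower than the lowest control library, and mouse 1 was the lowest of them. The level fell by 0.81 on the log2 scale (SE 0.19, adjusted p = 0.0250, edgeR), to 57.2% of control. In 3’-LEXO, the values were 2188, 2159 and 2290 CPM on the control diet and 899, 1564 and 1387 CPM on the iron-loaded diet. Again the groups did not overlap, with a wider spread among the iron-loaded mice than among the controls. The log2 fold change was -0.84 (SE 0.23), to 55.9% of control, with an adjusted p of 0.0615 in edgeR and 0.0049 in DESeq2. Without iron-loaded mouse 1, Trad-KAPA gave a log2 fold change of -0.65 (adjusted p = 0.0148) and 3’-LEXO one of -0.63 (adjusted p = 0.0440). Over all 13 alternatives per kit, it stayed below 0. The adjusted p lay between 0.000355 and 0.0768 for Trad-KAPA and between 0.00083 and 0.166 for 3’-LEXO.

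The share of catalase in the reads of the 10 genes was lower in every iron-loaded library than in every control library. It was 59.3% to 63.4% in the control libraries of Trad-KAPA and 48.3% to 54.1% in the iron-loaded ones. In 3’-LEXO, its share was 26.5% to 28.1% and 16.9% to 21.5%. The ratio of Cat to Sod1 reads, in which the scaling of the library cancels, was 6.58 to 7.62 on the control diet and 4.42 to 5.59 on the iron-loaded diet in Trad-KAPA. The same ratio was 0.749 to 0.893 and 0.446 to 0.632 in 3’-LEXO, so that the diets were separate in both kits. Together, the 10 genes held 0.392% to 0.459% of all counts on the control diet and 0.259% to 0.318% on the iron-loaded diet in Trad-KAPA. In 3’-LEXO, they held 0.807% to 0.814% and 0.532% to 0.726%. These ratios were chosen after the values had been seen and were not tested.

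The promoter of Cat is shown because it is the gene with the largest log2 fold change and its sequence repeats 1 short motif. It is the 250 bases before the RefSeq gene start (GRCm38.p6, minus strand, chr2:103485154-103485403), and capitals mark CCAAT or its reverse ATTGG.
Cat: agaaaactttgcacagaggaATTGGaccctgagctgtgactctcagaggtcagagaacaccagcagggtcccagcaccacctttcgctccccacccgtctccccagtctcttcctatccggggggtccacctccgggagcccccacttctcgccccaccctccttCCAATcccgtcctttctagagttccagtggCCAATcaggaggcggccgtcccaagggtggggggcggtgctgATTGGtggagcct
Here CCAAT stood 4 times, at 230, 85, 55 and 13 bases before the start, counted from the first base of the motif. RefSeq promoters were matched for 8 of the 10 genes, and 4 of these 8 held CCAAT on either strand within 250 bases, against 33.8% of all 32851 promoters. Both shares are for at least 1 copy. The share of promoters with 4 copies is not given here, so that the number in Cat has no baseline. Prdx5, which also fell in Trad-KAPA, held none in its window. The match is a description of letters and was not linked to the diet by any value here.

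Of the 3 superoxide dismutases, Sod3 passed the test in Trad-KAPA, and none did in 3’-LEXO. Sod3 (ENSMUSG00000072941, chromosome 5, 52363791 to 52371418, plus strand), the secreted enzyme, had the lowest mean level of the 10 genes by Trad-KAPA (per kilobase) and by 3’-LEXO, with a range over both diets that overlapped that of the next gene. Within each single 3’-LEXO library, Sod3 lay below Prdx2, the next gene there. The level of Sod3 was 52.4, 58.7 and 44.2 CPM in the control mice and 27.3, 38.0 and 39.5 CPM in the iron-loaded mice in Trad-KAPA. The groups did not overlap, although control mouse 3 and iron-loaded mouse 3 were close. Sod3 fell by 0.63 on the log2 scale (SE 0.17, adjusted p = 0.0397), to 64.7% of control, and without iron-loaded mouse 1 by 0.45 (adjusted p = 0.0225). In 3’-LEXO, where 189 to 386 reads were counted per library, the level was 26.7, 27.6 and 18.2 CPM on the control diet and 15.1, 22.9 and 17.2 CPM on the iron-loaded diet. These values overlapped, and the log2 fold change was -0.44 (SE 0.21, adjusted p = 0.218), or -0.30 without iron-loaded mouse 1. In a fit over all 12 libraries, the Trad-KAPA call of Sod3 was lost (adjusted p = 0.0508).

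Sod1 (ENSMUSG00000022982, chromosome 16, 90220754 to 90226329, plus strand), the copper and zinc enzyme of the cytosol, gave 349, 353 and 382 CPM on the control diet and 283, 299 and 324 CPM on the iron-loaded diet in Trad-KAPA. In 3’-LEXO, it gave 2618, 2881 and 2565 CPM and 2017, 2473 and 2302 CPM. Every iron-loaded library lay below every control library in each kit, but Sod1 did not pass the test. The log2 fold change was -0.33 (SE 0.12, adjusted p = 0.101) in Trad-KAPA and -0.30 (SE 0.18, adjusted p = 0.317) in 3’-LEXO, and -0.25 and -0.21 without iron-loaded mouse 1.

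Sod2 (ENSMUSG00000006818, chromosome 17, 13006846 to 13040063, plus strand), the manganese enzyme of mitochondria, had the largest difference in diet effect between the kits. In Trad-KAPA, the levels were 162, 163 and 166 CPM on the control diet and 131, 138 and 143 CPM on the iron-loaded diet. These groups were separate, with a log2 fold change of -0.32 (SE 0.11, adjusted p = 0.0700). In 3’-LEXO, the levels were 249, 216 and 231 CPM against 257, 224 and 223 CPM, with overlap and a log2 fold change of -0.05 (SE 0.14, adjusted p = 0.878). The diet effect in 3’-LEXO minus that in Trad-KAPA was 0.27 (SE 0.17) for Sod2, which did not pass the test (unadjusted p = 0.125). Without iron-loaded mouse 1, the log2 fold changes of Sod2 were -0.25 and -0.10. Of the 50-base stretches of the annotated Sod2 exons, 21.0% were found in transcripts of other genes as well, and reads from such stretches are not unique.

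Among the peroxiredoxins, Prdx5 and Prdx6 were the lowest relative to control, and Prdx3 and Prdx4 the nearest to or above it. Prdx5 (ENSMUSG00000024953, chromosome 19, 6906697 to 6910106, minus strand) had 102, 104 and 107 CPM on the control diet and 79.7, 79.9 and 81.9 CPM on the iron-loaded diet in Trad-KAPA. The mice of a diet hardly differed, and the 2 diets were far apart compared with that spread. Prdx5 fell by 0.44 on the log2 scale (SE 0.10, adjusted p = 0.0212), to 73.5% of control, and without iron-loaded mouse 1 by 0.40 (adjusted p = 0.0146). In 3’-LEXO, the values were 124, 147 and 146 CPM and 116, 108 and 119 CPM, with control mouse 1 just above the highest iron-loaded mouse. The log2 fold change there was -0.34 (SE 0.14, adjusted p = 0.181), or -0.33 without iron-loaded mouse 1. Prdx5 overlaps Trmt112 on the opposite strand, whose counts were 19 to 63 per library, and whether strand was used in counting was not given in the sources used here.

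Prdx6 (ENSMUSG00000026701, chromosome 1, 161240112 to 161251219, minus strand) gave 372, 348 and 408 CPM on the control diet and 248, 302 and 299 CPM on the iron-loaded diet in Trad-KAPA. In 3’-LEXO, it gave 898, 838 and 959 CPM and 514, 747 and 697 CPM. The diets were separate in both kits, with iron-loaded mouse 1 the lowest each time. The log2 fold change was -0.48 (SE 0.14, adjusted p = 0.0544) in Trad-KAPA, just outside the threshold, and -0.52 (SE 0.20, adjusted p = 0.140) in 3’-LEXO. Without iron-loaded mouse 1 it was -0.36 in each kit (adjusted p = 0.0544 and 0.208). DESeq2 called Prdx6 in Trad-KAPA (adjusted p = 0.0205), as did edgeR without the filter (adjusted p = 0.0341) and at 10 M counts per library (adjusted p = 0.04998). The copies Prdx6b and Prdx6-ps2 had 0 to 2 reads per library.

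Prdx1 (ENSMUSG00000028691, chromosome 4, 116685544 to 116700822, plus strand), the abundant cytosolic peroxiredoxin, had 316, 316 and 345 CPM on the control diet and 301, 311 and 320 CPM on the iron-loaded diet in Trad-KAPA. In 3’-LEXO, the values were 1668, 1489 and 1679 CPM and 1205, 1776 and 1572 CPM. The groups overlapped in both kits, and the log2 fold change was -0.14 in each (SE 0.12 and 0.20, adjusted p = 0.440 and 0.703), or -0.08 and 0.01 without iron-loaded mouse 1. The values of Prdx2 (ENSMUSG00000005161, chromosome 8, 84969587 to 84974834, plus strand) overlapped as well, at 51.8 to 56.6 CPM against 42.8 to 52.1 CPM in Trad-KAPA and 25.8 to 32.6 CPM against 26.2 to 30.8 CPM in 3’-LEXO. Its log2 fold changes were -0.24 (SE 0.12) and -0.16 (SE 0.15), or -0.13 and -0.11 without iron-loaded mouse 1. Prdx2 overlaps Rnaseh2a and Junb on the opposite strand. In Trad-KAPA, Junb had 657, 648 and 327 reads on the control diet and 303, 377 and 376 on the iron-loaded diet. In 3’-LEXO, Junb had 740, 700 and 471 reads and 315, 370 and 396. There, Prdx2 had 456, 443 and 364 reads and 349, 330 and 288. Rnaseh2a had 45 to 155 reads per library over both kits, beside 288 to 937 for Prdx2. Without strand, reads of these genes and of Prdx2 cannot be told apart where they overlap. Prdx2 is abundant in red cells, whose markers varied among the mice as given further on. In Trad-KAPA, control mice 1, 2 and 3 had 56.6, 51.8 and 55.9 CPM of Prdx2, beside 9.73, 31.3 and 78.0 CPM of the red cell gene Hbb-bs. In 3’-LEXO, they had 32.6, 31.7 and 25.8 CPM of Prdx2, beside 63.9, 187 and 500 CPM of Hbb-bs. A part of red cells in the level of Prdx2 was not tested.

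Prdx3 (ENSMUSG00000024997, chromosome 19, 60864051 to 60874556, minus strand), the mitochondrial peroxiredoxin, had 101, 102 and 94.8 CPM on the control diet and 143, 103 and 106 CPM on the iron-loaded diet in Trad-KAPA. The groups were separate by a small margin, and iron-loaded mouse 1 alone was well above the rest. The log2 fold change was 0.16 (SE 0.12, adjusted p = 0.384), and 0.04 without that mouse. In 3’-LEXO, Prdx3 had 98.0, 127 and 91.7 CPM and 126, 125 and 110 CPM, which overlapped, with a log2 fold change of 0.14 (SE 0.15, adjusted p = 0.612), or 0.12 without iron-loaded mouse 1. Prdx4 (ENSMUSG00000025289, chromosome X, 155323918 to 155340754, minus strand), the enzyme of the endoplasmic reticulum, had 77.8 to 100.3 CPM against 86.4 to 99.3 CPM in Trad-KAPA and 138 to 223 CPM against 143 to 194 CPM in 3’-LEXO. Its log2 fold changes were 0.02 (SE 0.12) and -0.08 (SE 0.20), or 0.10 and 0.06 without iron-loaded mouse 1, and the spread among the control mice was wider than that among the iron-loaded mice.

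By the plain criterion that the CPM of the diets did not overlap, 6 of the 10 genes were lower on the iron-loaded diet in Trad-KAPA (Sod1, Sod2, Sod3, Cat, Prdx5 and Prdx6) and 1 was higher (Prdx3). Over all genes tested, 16.6% were separate and lower and 24.7% separate and higher. In 3’-LEXO, 4 of the 10 genes were separate and lower (Sod1, Cat, Prdx5 and Prdx6), where 12.8% of all genes were, and 0 were separate and higher, where 18.5% were. With TMM-scaled library sizes, a scaling added after seeing the data, 8 in place of 7 genes were separate for Trad-KAPA, with 4 for 3’-LEXO. The shares of all genes above are for plain CPM. Those with TMM scaling are not given here, so that these counts have no baseline. The calls in Trad-KAPA rested on 3 mice per diet. Leaving out iron-loaded mouse 1 left 3 calls among the 10 genes, and leaving out any other single mouse left 0, with adjusted p from 0.0511 to 0.128 for Cat, Sod3 and Prdx5.

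**Figure D2:**
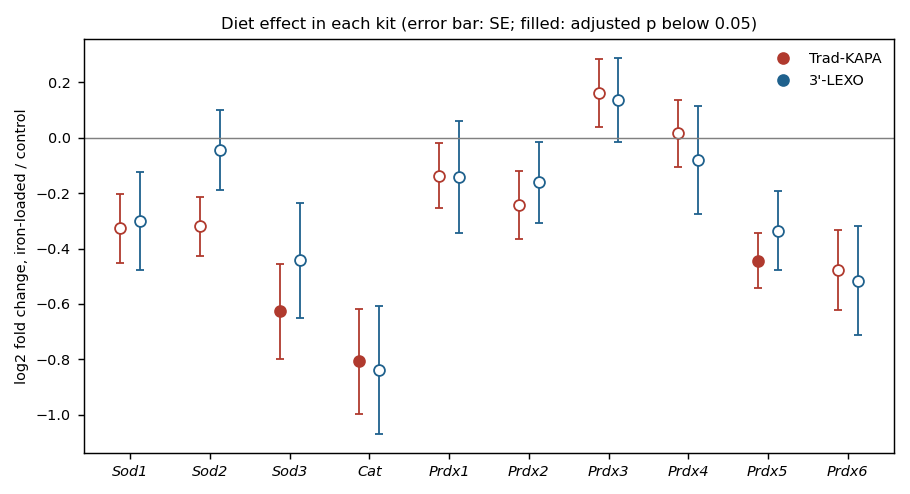
Log2 fold change of the iron-loaded over the control diet (vertical axis) for each gene in Trad-KAPA (red) and 3’-LEXO (blue), with 3 mice per diet, SE as error bars and filled points for an adjusted p below 0.05. The points of the kits lie close together for Cat (-0.81 and -0.84) and furthest apart for Sod2 (-0.32 and -0.05), and the filled points are Sod3, Cat and Prdx5 in Trad-KAPA.

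The difference between the diet effects of the kits was tested as an interaction over all 12 libraries. This fit did not pair the libraries of a mouse, so that its SE includes the spread between mice. By edgeR it was called for 0 of the 10 genes, with 0 at an unadjusted p under 0.05, and DESeq2 called 0. Over all 14384 genes tested, 0% were called and 402 had an unadjusted p under 0.05. For Cat, the diet effect in 3’-LEXO minus that in Trad-KAPA was -0.03 (SE 0.31), and for Prdx6 it was -0.04 (SE 0.25). With the mouse as a block, in which both libraries of a mouse are paired, the value for Sod2 was 0.28 (unadjusted p = 0.0406, adjusted p = 0.674). In that fit, the value for Cat was -0.07 (unadjusted p = 0.577) and that for Prdx6 -0.05 (unadjusted p = 0.628). A call in Trad-KAPA that was missing in 3’-LEXO was therefore not shown to be a difference between the kits.

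The kits themselves counted some of these genes very differently and others nearly alike. The share that differed was near that of all genes. Of these genes, 8 of 10 differed between the kits, beside 76.5% of all genes tested, with 6 higher in 3’-LEXO (38.8% of all genes) and 2 higher in Trad-KAPA (37.6% of all genes). Sod1 was 2.90 higher on the log2 scale in 3’-LEXO (SE 0.11, adjusted p = 3.1e-11), a 7.48-fold difference, and in single mice the CPM ratio was 6.71 to 8.26. Prdx1 was higher by 2.30 (SE 0.12, adjusted p = 8e-10), Prdx6 by 1.24, Prdx4 by 0.94, Sod2 by 0.64 and Prdx5 by 0.46. Each of these was higher in 3’-LEXO in 6 of 6 mice. Sod3 had a log2 difference of -1.01 (SE 0.14, adjusted p = 1.8e-05) and Prdx2 of -0.83 (SE 0.09, adjusted p = 1.9e-06), and both were higher in Trad-KAPA in every mouse. Cat was lower in 3’-LEXO in all mice, by a log2 difference of -0.24 (adjusted p = 0.166), which was called with the mouse as a block (-0.25, adjusted p = 0.000638). Prdx3 differed least (0.06, adjusted p = 0.535), with 3 of 6 mice on each side.

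Levels of different genes are compared in Trad-KAPA per kilobase of transcript and in 3’-LEXO as CPM. Cat was the highest in Trad-KAPA, with 790.0 ± 237 CPM per kilobase of merged exons (SD, n = 6 mice over both diets), followed by Prdx1 (105 ± 4.81), Sod1 (83.5 ± 9.26), Prdx3 (73.3 ± 11.6) and Prdx6 (68.6 ± 12). Sod1 and Prdx3 overlapped over the mice, as did Prdx3 and Prdx6, so that their order was not beyond the spread. Prdx4 (43.4 ± 4.16) and Prdx5 (43.2 ± 6.15) overlapped, and Prdx2 (16.9 ± 1.62), Sod2 (15.0 ± 1.49) and Sod3 (11.6 ± 2.98) were the lowest, each overlapping its neighbour. The place of Sod1 depended on the annotated length. The merged exons of Sod1 cover 3970 bases, and its principal transcript has 641 bases, with which Sod1 reached 517 ± 57.3 CPM per kilobase and overlapped with Cat. That length was added after seeing the data.

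In 3’-LEXO, the order was Sod1 (2476 ± 294 CPM, n = 6), Cat (1748 ± 555), Prdx1 (1565 ± 202), Prdx6 (775 ± 160.0) and Sod2 (233 ± 16.2). Over the 6 mice of both diets, the range of Sod1 overlapped that of Cat. The range of Cat overlapped those of Prdx1 and Prdx6, while Prdx6 was separate from Prdx1 and from Sod2. Within single libraries, Cat had 0.446 to 0.893 times the reads of Sod1, so that Sod1 was above Cat in each. Cat was above Prdx6 in each library as well. Prdx4 (176 ± 31.9), Prdx5 (127 ± 16.0) and Prdx3 (113 ± 15.5) overlapped from one to the next, as did Sod2 and Prdx4, and Prdx2 (29.0 ± 3.05) and Sod3 (21.3 ± 5.24) were the lowest on this scale too. The place of Cat turned with the diet. Cat had 1.31 to 1.45 times the reads of Prdx1 in the control libraries and 0.746 to 0.882 times in the iron-loaded ones, so that it was above Prdx1 in each of the former and below it in each of the latter.

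**Figure D3:**
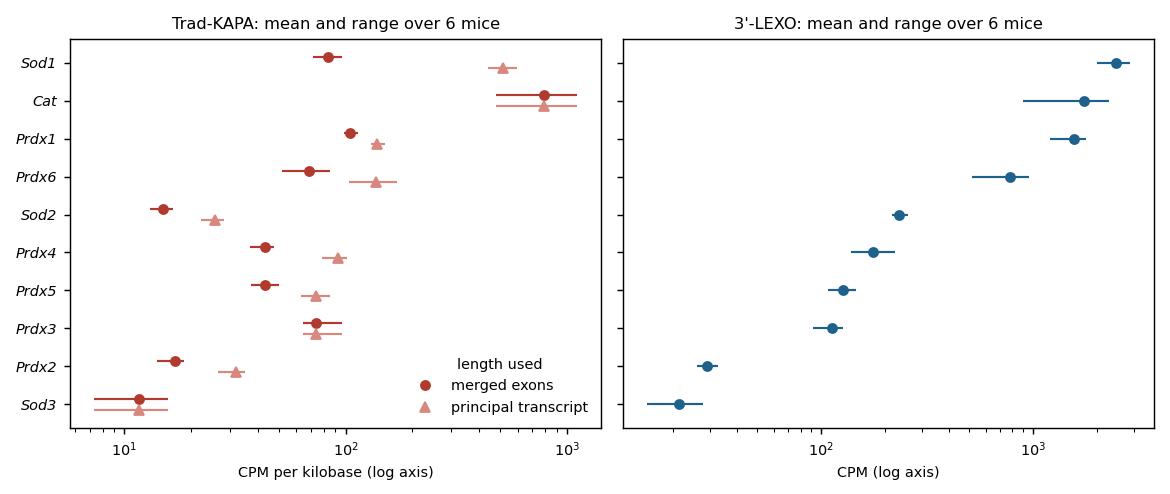
Mean level (point) and range over 6 mice (line) of each gene on log axes, as CPM per kilobase in Trad-KAPA for 2 transcript lengths (left) and as CPM in 3’-LEXO (right). Sod1 moves from 83.5 to 517 CPM per kilobase between the lengths, and Sod3 is the lowest in both panels.

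Sod1 overlaps Scaf4 on the opposite strand, which had 173 to 533 reads per library. Shared 50-base stretches made up 8.29% of Prdx1, whose pseudogenes include Gm7204 and Gm21399, 4.53% of Prdx2, 3.42% of Sod1 and 0.136% of Prdx6, and 0% of Sod3, Cat, Prdx3, Prdx4 and Prdx5. Prdx1 and Sod1 are 2 of the 8 genes with a matched promoter whose window held the motif TGACNNNGC on either strand, the core of the antioxidant response element that Nfe2l2 binds. It was found in 10.2% of all 32851 promoters. The matches are printed with 20 bases on each side, with the motif in capitals, to show that both lie on the reverse strand (RefSeq, GRCm38.p6, plus strand, chr16:90220686-90220734 and chr4:116685446-116685494).
Sod1: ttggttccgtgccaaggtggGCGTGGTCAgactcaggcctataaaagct
Prdx1: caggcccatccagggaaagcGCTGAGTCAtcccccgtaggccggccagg
The Sod1 match began 56 bases and the Prdx1 match 133 bases before the gene start. Neither gene passed the diet test in either kit.

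Genes linked to the reduction of peroxiredoxins changed in both directions. The list holds thioredoxins and their reductases, Srxn1, sestrins and Txnip. It is therefore not limited to enzymes that keep peroxiredoxins reduced. Of its 10 genes, 2 were called higher and 2 lower in Trad-KAPA, and 1 higher and 1 lower in 3’-LEXO. The median log2 fold change of this mixed list was 0.26 and 0.19. Whether the capacity to reduce peroxiredoxins changed was not tested. Srxn1, sulfiredoxin, which repairs overoxidized peroxiredoxins, rose from 27.0 to 37.6 CPM to 49.5 to 74.9 CPM in Trad-KAPA (log2 fold change 0.74, adjusted p = 0.0222). In 3’-LEXO, it rose from 76.6 to 112 CPM to 169 to 210.0 CPM (log2 fold change 0.89, adjusted p = 0.0228). Sesn3, a sestrin, fell in both kits, by 0.96 on the log2 scale in Trad-KAPA (adjusted p = 0.0331) and by 0.92 in 3’-LEXO (adjusted p = 0.0290). For both genes, the diets did not overlap in either kit. The calls depended on single mice. In Trad-KAPA, both were lost without control mouse 1, 2 or 3, where 1 or 2 genes of the list were left. In 3’-LEXO, both were lost without control mouse 2 or 3, Srxn1 also without iron-loaded mouse 3, and Sesn3 without control mouse 1 or iron-loaded mouse 2. Genes called by edgeR in 1 kit only are named here and in the next lists because the counts are small. They were chosen after their values were seen. Here they were Txnip, higher by 0.93 in Trad-KAPA, and Txnrd2, the mitochondrial thioredoxin reductase, lower (log2 fold change -0.69). In 3’-LEXO, edgeR gave 0.77 for Txnip (adjusted p = 0.0646) and -0.52 for Txnrd2 (adjusted p = 0.0569). DESeq2 called both genes in 3’-LEXO as well.

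Glutathione peroxidases are the other large group of enzymes that reduce hydrogen peroxide. Of 7 in the table, 4 passed the filter on low counts. Gpx1 fell in both kits, while Gpx3, Gpx4 and Gpx7 did not pass the test. The log2 fold changes in Trad-KAPA and 3’-LEXO were 0.51 and 0.72 for Gpx3, 0.35 and 0.59 for Gpx4, and -0.42 and -0.48 for Gpx7. The list medians were -0.03 and 0.06, with 2 and 3 genes at an unadjusted p under 0.05 by edgeR. Gpx1 had 986, 962 and 1228 CPM on the control diet and 391, 492 and 516 CPM on the iron-loaded diet in Trad-KAPA. Its log2 fold change was -1.25 (SE 0.18, adjusted p = 0.00581), and in 3’-LEXO it was -1.21 (SE 0.30, adjusted p = 0.0452). The groups did not overlap in either kit. The Trad-KAPA call held without any single mouse, and that in 3’-LEXO was lost without control mouse 1 or 3 or iron-loaded mouse 2 or 3.

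Catalase works beside peroxisomal oxidases that make hydrogen peroxide, and 11 oxidases of a list of 12 were measured. In Trad-KAPA, 1 was called higher and 2 lower, with a median log2 fold change of -0.38, and in 3’-LEXO 1 higher and 0 lower, with a median of -0.12. DESeq2 called 2 there, adding Hao2. Aox1, aldehyde oxidase of the cytosol, rose in both kits, by a log2 fold change of 0.81 (adjusted p = 0.0128) and 1.14 (adjusted p = 0.0262). In 3’-LEXO, iron-loaded mouse 1 had 73.4 CPM of Aox1, against 36.9 and 38.3 CPM in the other iron-loaded mice, and the value was 0.77 without it. The Aox1 call was lost in 3’-LEXO without control mouse 1, 2 or 3, and in Trad-KAPA without control mouse 2, where 0 oxidases were left. Hao2 was also lost without control mouse 1. Those that fell in Trad-KAPA were Hao2, a hydroxyacid oxidase (-1.21), and Ddo, the oxidase of D-aspartate (-0.66). Of 10 genes for the import of peroxisomal proteins, Pex5, the import receptor (-0.36), and Pex6 (-0.64) fell in Trad-KAPA, where 17.1% of all genes were called. The call of Pex5 held in 1 of the 6 fits that left out 1 mouse, that without iron-loaded mouse 1, and that of Pex6 in 6 of 6. In 3’-LEXO, edgeR called 0, with 1 at an unadjusted p under 0.05, and DESeq2 called 1, Pex6.

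For the supply of copper and manganese to the superoxide dismutases, edgeR called 1 of 9 genes by Trad-KAPA and 0 by 3’-LEXO, where 2 had an unadjusted p under 0.05 and DESeq2 called 1. In each case the gene called was Slc30a10, a manganese exporter. In Trad-KAPA, it had 61.6, 73.6 and 90.3 CPM on the control diet and 38.5, 38.7 and 36.9 CPM on the iron-loaded diet (log2 fold change -1.06, adjusted p = 0.00647). Ccs, the copper chaperone of Sod1, had log2 fold changes of -0.14 and -0.12. The list had a median of -0.15 (Trad-KAPA) and of -0.28 (3’-LEXO). Over all genes, the medians were 0.02 and 0.01, and 17.1% and 6.1% were called. Of 7 genes of NADPH oxidases, Cybb (0.87), which makes superoxide in phagocytes, and Cyba (0.64) rose in Trad-KAPA. Nox4 (-2.19, at 0.07 to 3.98 CPM), an oxidase other than that of phagocytes, fell there. Without control mouse 1, 2 or 3 or iron-loaded mouse 3, 0 of these calls were left, and without iron-loaded mouse 2 only that of Nox4. In 3’-LEXO, edgeR called 0, with 2 at an unadjusted p under 0.05, and DESeq2 called 0.

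**Figure D4:**
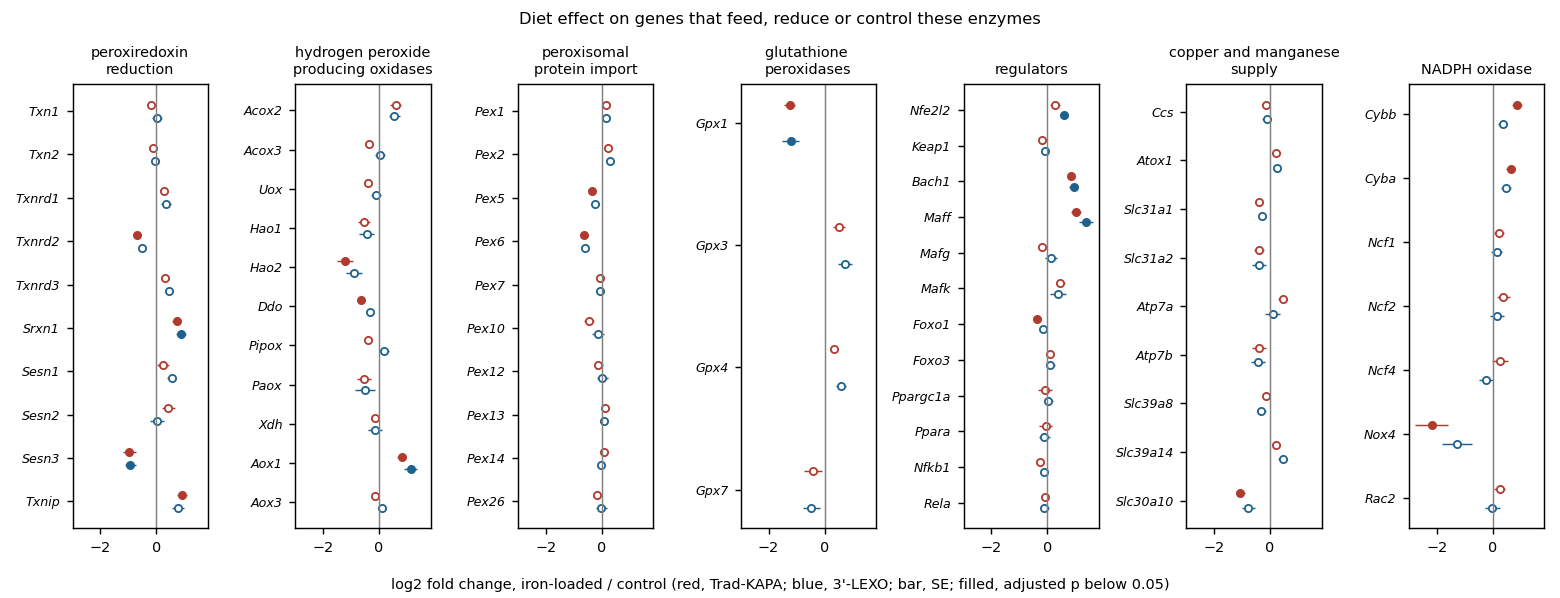
Log2 fold change of the iron-loaded over the control diet (horizontal axis) with SE bars for the genes of 7 lists, in Trad-KAPA (red) and 3’-LEXO (blue), filled where the adjusted p was below 0.05. Genes filled in both kits are Srxn1, Sesn3, Aox1, Gpx1, Bach1 and Maff, and Nfe2l2 is filled in 3’-LEXO alone.

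Of 12 regulators of these enzymes, 2 were called higher and 1 lower in Trad-KAPA and 3 higher and 0 lower in 3’-LEXO. Bach1, a heme-sensing repressor that competes with Nfe2l2 for its sites, rose by a log2 fold change of 0.85 (adjusted p = 0.00479) in Trad-KAPA and 0.94 (adjusted p = 0.00809) in 3’-LEXO. Maff, a small Maf protein that pairs with both, rose by 1.03 (adjusted p = 0.00847) and 1.37 (adjusted p = 0.0169), at 2.43 to 8.67 CPM. Nfe2l2 was called in 3’-LEXO (0.60, adjusted p = 0.0352) and not in Trad-KAPA (0.28, adjusted p = 0.276). Foxo1, a forkhead factor, fell in Trad-KAPA (-0.37). The list medians were -0.07 and 0.07, beside 0.02 and 0.01 over all genes, of which 17.1% and 6.1% were called. Leaving out control mouse 1, 2 or 3 or iron-loaded mouse 3 left 1 regulator called in 3’-LEXO, and iron-loaded mouse 2 left 2. The calls of Bach1 and Maff in Trad-KAPA held in 6 of 6 such fits, and in 3’-LEXO that of Bach1 held in 5 and that of Maff in 3. Those of Nfe2l2 in 3’-LEXO and Foxo1 in Trad-KAPA held only without iron-loaded mouse 1.

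The markers of the tissue matched its label, with hepatocyte markers at a summed 112650 to 153297 CPM in Trad-KAPA. Of these 8 markers, edgeR called 0 there, with 1 at an unadjusted p under 0.05 and 1, Tat, called by DESeq2, and Tat was called higher in 3’-LEXO, a call that was lost without any 1 of the 6 mice. Other cell markers moved with the diet. Macrophage markers summed to 451 to 719 CPM on the control diet and 824 to 914 CPM on the iron-loaded diet in Trad-KAPA, and to 1148 to 1545 CPM and 1562 to 1847 CPM in 3’-LEXO. Of these 11 markers, 4 and 3 were called higher in the kits, and 0 lower. Gpnmb (log2 fold change 4.49 and 4.02), Marco (3.10 and 2.82) and Lyz2 (0.81 and 0.75) were called in both. Among those called in neither were Adgre1 (0.08 and -0.31), Clec4f (0.13 and 0.11) and Cd5l (0.32 and 0.11). The list medians were 0.41 and 0.19. In 3’-LEXO, where the sums were close, Marco alone had 15.9 to 23.6 CPM on the control diet and 87.1 to 232 CPM on the iron-loaded diet. The calls of Gpnmb and Marco held without any single mouse, while that of Lyz2 was lost without control mouse 2 in Trad-KAPA and without control mouse 1, 2 or 3 or iron-loaded mouse 3 in 3’-LEXO. The neutrophil genes S100a8 and S100a9 rose in both kits, at a summed level of that list of at most 10.3 CPM in Trad-KAPA. Without control mouse 2 or 3, 0 neutrophil genes were called in 3’-LEXO, and 1 without iron-loaded mouse 2 or 3. In Trad-KAPA, S100a8 was called only without iron-loaded mouse 1 among the 6 fits, and S100a9 in all. Red cell markers summed to 22.1 to 154 CPM on the control diet and 16.9 to 29.6 CPM on the iron-loaded diet in Trad-KAPA, and to 164 to 1217 CPM and 120 to 209 CPM in 3’-LEXO, with Slc4a1 called lower in Trad-KAPA. Of the red cell markers, 0 were called there without iron-loaded mouse 2 or 3 and 5 without control mouse 1. All 5 red cell markers tested had an unadjusted p under 0.05 by edgeR in each kit, and the list median was -1.92 in both. In 3’-LEXO, edgeR called 0, and DESeq2 called Slc4a1 and Hba-a2, the latter at 0 to 3.22 CPM. Endothelial markers gave 2 higher of 6 in Trad-KAPA (Lyve1 and Cdh5) and 1 higher and 1 lower in 3’-LEXO (Lyve1 and Stab2). Only Lyve1 in Trad-KAPA held without any single mouse, and 0 were left in 3’-LEXO without control mouse 1, 2 or 3. Stellate and smooth muscle markers gave 1 lower of 8 (Des) in Trad-KAPA and 0 in 3’-LEXO, where 2 had an unadjusted p under 0.05 and DESeq2 called Col1a1. The call of Des was lost without control mouse 1 or 2 or iron-loaded mouse 2 or 3. Lymphocyte markers gave 0 of 4 and 0 of 3, with 0 at an unadjusted p under 0.05 and 0 called by DESeq2 in either kit. The part of these cells in the results for the 10 genes was not tested.

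The iron loading itself showed in the genes of the hepatic iron response, of which 4 of 6 were called higher in Trad-KAPA and 3 of 5 in 3’-LEXO, and 0 lower. In Trad-KAPA, 2 were left without control mouse 2 or 3, and in 3’-LEXO 0 without control mouse 2 or 3 or iron-loaded mouse 2 or 3. Smad7 (log2 fold change 1.88 and 1.58) and Atoh8 (1.73 and 1.67), both targets of BMP signalling, rose in both kits. Control mouse 1 had 515 CPM of Hamp, which encodes hepcidin, against 44.0 and 83.2 CPM in the other control mice in Trad-KAPA.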

How the data were processed

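Liver RNA of 6 mice was sequenced in 12 libraries. The authors mapped reads with STAR 2.5.3a to GRCm38 (mm10, per the submitters' processing notes) and deposited raw counts of reads mapped uniquely to exons, without removing duplicates. The counting program and annotation release are not given in the sources used here. GENCODE M21 gave symbols, coordinates and lengths for 26940 of the 27022 identifiers. The 10 genes and all lists were chosen with earlier results of these data known. Each fit ran over all genes.

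Counts were filtered with filterByExpr, scaled by TMM and compared, 3 against 3 mice within a kit, by edgeR's two-sided quasi-likelihood F test (edgeR 4.0.16, limma 3.58.1, R 4.3.3). A gene was called at a Benjamini-Hochberg adjusted p below 0.05. The interaction and the kit difference came from a 4-group fit of all 12 libraries. SE is the absolute log2 fold change divided by the square root of F. DESeq2 1.42.0 was an alternative, among 35 planned and 3 added after seeing the data. From each list, genes called in both kits were named, at most 4. From the oxidase list, 1 gene is not reported here. The fits were tested on simulated counts. The same replicate number names the same mouse in both kits. The deviations of both libraries of a mouse from their group means correlated at r = 0.444 to 0.770 over 10326 genes. Python 3.11.15, numpy 2.4.6, pandas 2.3.3 and matplotlib 3.10.9 were used.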

Additional observations from a re-analysis of the deposited data

How the results depend on the processing

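Among the 10 genes, every log2 fold change of diet kept its sign under all 13 alternatives per kit except those of Prdx4 in both kits and of Prdx1 in 3’-LEXO. With 1 mouse left out, Prdx4 lay between -0.0446 and 0.104 in Trad-KAPA and between -0.214 and 0.0821 in 3’-LEXO, and Prdx1 between -0.295 and 0.0116 in 3’-LEXO. In Trad-KAPA, 0 to 3 of the 10 genes and 841 to 2803 of all genes were then called, and in 3’-LEXO 0 to 1 and 199 to 871. In 3’-LEXO, 1 of the 10 genes (Cat) was called by DESeq2, without the filter and in the 12-library fit, where 1313, 2040 and 1681 of all genes were called in place of 811. The calls of the gene lists that leaving out 1 mouse ends are given beside them. Across diets the replicate numbers name different mice (r from -0.168 to 0.10) and share only a number. With them as a replicate block, the calls among the 10 genes were 3 and 0 and those of all genes in 3’-LEXO 436. That block left 0 oxidases, 0 glutathione peroxidases and 0 endothelial and hepatocyte markers called in 3’-LEXO. With the mouse as a block, 5 genes passed the interaction test, and without the filter 7, none of the 10. Of the interaction values near 0, Prdx1 changed sign by DESeq2 (0.0154), with its size factors (0.0159), at 10 M counts (0.000773) and with at least 50 counts on average (0.0229), and Prdx3 at 10 M counts (0.0134). With 1 mouse left out, the interaction ranged from -0.117 to 0.0653 for Cat, -0.114 to 0.136 for Prdx1, -0.0341 to 0.173 for Prdx2, -0.125 to 0.128 for Prdx3, -0.0784 to 0.0465 for Prdx6 and -0.0523 to 0.0959 for Sod1, and the kit difference of Prdx3 from -0.0316 to 0.11. The cause was not tested. With the longest transcript, the Trad-KAPA levels per kilobase were 25.6 for Sod2, 139 for Prdx1, 32.0 for Prdx2, 89.2 for Prdx4, 50.6 for Prdx5 and 129 for Prdx6. With the principal transcript, they were the same for Sod2, Prdx1 and Prdx2 and 517 for Sod1, 92.4 for Prdx4, 73.2 for Prdx5 and 138 for Prdx6, since a shorter length raises the value.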
